A study of Mus musculus with 7 samples.

Results

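The 33 genes described here mark the luminal epithelium of the mammary gland and were measured in libraries of sorted basal cells of the mouse. They were taken from a list by gene symbol, all 33 were found among the 56440 gene models of the deposited table, and 30 passed the filter for testing, a normalised read count of at least 10 in at least 3 libraries. RNA was sequenced from 3 libraries of mice named a3a6KO, after the integrin subunits α3 and α6, whose titles mark them as DKO and Blg positive, and from 4 Ctrl libraries, whose titles mark them as Blg negative. All 7 samples were fresh tissue taken on day 2 of lactation, digested with trypsin and sorted by flow cytometry, and the design text calls them biological replicates. Blg is taken here, from general knowledge of the study, as a Cre recombinase driven by the beta-lactoglobulin promoter of milk-producing luminal cells, which makes the sorted basal cells neighbours of the cells meant to lose both integrins. Because all mutants and none of the controls carry Blg, the transgene and the deletion cannot be told apart. The sources used here give no strain, age, number of animals per library or sorting gate, and do not say whether Ctrl mice carry floxed alleles.

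The mammary duct and alveolus are built of an inner luminal layer and an outer basal layer of contractile myoepithelial cells. Luminal cells fall into a secretory lineage, which carries the regulator Elf5 and makes milk, a hormone-sensing lineage, which carries the receptors for oestrogen and progesterone, and progenitors marked by genes such as Kit. Luminal cells also carry simple keratins, tight junction proteins of the claudin family and transcription factors of the ETS and grainyhead-like families, several of which are used by other epithelia as well. Some of these genes are transcribed in basal cells too, and a basal sort can hold a small share of luminal cells or free RNA from them. In bulk RNA, fewer cells of a type and less RNA per cell cannot be told apart.

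The libraries held 9368418 to 21548279 recovered reads. The targeted integrin genes were transcribed in both groups of basal cells, with a log2 fold change (a3a6KO minus Ctrl) of 0.07 (SE 0.21) for Itga3 and −0.10 (SE 0.15) for Itga6, while the luminal cells themselves were not analysed here. Acta2, the smooth muscle actin of myoepithelial cells, had normalised read counts of 546497 to 673537 in a3a6KO and 460944 to 727845 in Ctrl. The 14 basal markers had a mean log2 level of 13.88 ± 0.045 in a3a6KO and 13.93 ± 0.069 in Ctrl (SD, n = 3 and 4). Milk transcripts were present in all 7 libraries, with the casein Csn2 at 44719.8, 72387 and 177460.0 in a3a6KO replicates 1 to 3, against 85812, 58533, 322723 and 431668 in Ctrl replicates 1 to 4. Ctrl replicates 3 and 4 held the most Csn2, followed by a3a6KO replicate 3, so the groups overlapped. The 16 immune markers had summed values of 1183 to 3389 in a3a6KO and 863 to 3084 in Ctrl, with none at 0 in all 7 libraries. The mast cell genes Mcpt4 and Cpa3 and the granulocyte gene Mpo were at 0 in most libraries and under 5 in every one. The 12 endothelial markers had a mean log2 level of 9.46, 9.89 and 10.05 in a3a6KO replicates 1 to 3, against 8.40, 8.77, 8.54 and 9.20 in Ctrl replicates 1 to 4, so that every a3a6KO library lay above every control.

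Promoters are shown for 3 members that differed widely between libraries (Cldn4, Cldn7 and Muc1) and for 2 whose levels were steady (Krt18 and Prom2), so that the values that follow can be set beside their start sites. The sequences are from RefSeq, build GRCm38.p6, 250 bases before to 50 bases after the start, and 21 of the 33 members were matched. They lie at chr5:134946885-134947184, minus strand (Cldn4), chr11:69964529-69964828, plus strand (Cldn7), chr3:89228806-89229105, plus strand (Muc1), chr15:102027966-102028265, plus strand (Krt18) and chr2:127541368-127541667, minus strand (Prom2). Capitals mark matches, on either strand, to the E-box CAGGTG, to AACCNGTT, a form of the grainyhead-like motif, and to TTCNNNGAA, the STAT motif.
Cldn4: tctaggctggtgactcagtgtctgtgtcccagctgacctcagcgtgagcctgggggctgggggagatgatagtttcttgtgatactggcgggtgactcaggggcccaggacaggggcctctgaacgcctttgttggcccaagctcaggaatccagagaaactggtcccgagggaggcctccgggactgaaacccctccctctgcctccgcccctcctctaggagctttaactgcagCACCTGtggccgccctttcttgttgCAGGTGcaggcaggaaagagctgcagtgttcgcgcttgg
Cldn7: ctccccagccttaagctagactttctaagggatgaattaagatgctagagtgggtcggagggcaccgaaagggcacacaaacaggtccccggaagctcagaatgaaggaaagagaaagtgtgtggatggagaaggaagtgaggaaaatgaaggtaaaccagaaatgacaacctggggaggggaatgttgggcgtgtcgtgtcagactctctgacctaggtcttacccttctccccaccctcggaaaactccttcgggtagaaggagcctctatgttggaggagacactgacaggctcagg
Muc1: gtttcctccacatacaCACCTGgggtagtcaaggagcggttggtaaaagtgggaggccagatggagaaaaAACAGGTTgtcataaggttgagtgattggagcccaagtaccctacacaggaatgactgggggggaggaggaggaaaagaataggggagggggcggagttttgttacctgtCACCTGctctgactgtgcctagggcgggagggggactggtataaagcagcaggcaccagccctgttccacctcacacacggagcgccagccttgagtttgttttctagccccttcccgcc
Krt18: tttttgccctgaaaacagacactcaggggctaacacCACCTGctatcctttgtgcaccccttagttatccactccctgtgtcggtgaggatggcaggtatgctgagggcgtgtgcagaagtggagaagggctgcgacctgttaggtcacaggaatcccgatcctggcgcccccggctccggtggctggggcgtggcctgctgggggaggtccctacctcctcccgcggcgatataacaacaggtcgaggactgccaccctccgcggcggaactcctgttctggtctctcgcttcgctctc
Prom2: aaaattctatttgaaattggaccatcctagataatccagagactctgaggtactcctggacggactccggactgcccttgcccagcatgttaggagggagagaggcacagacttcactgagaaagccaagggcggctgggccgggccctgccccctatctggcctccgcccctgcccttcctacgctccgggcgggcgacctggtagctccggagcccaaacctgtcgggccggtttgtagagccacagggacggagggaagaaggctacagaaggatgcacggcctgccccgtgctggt
CAGGTG was found in 13 of the 21 members (61.9%) and in 20.2% of 32851 promoters of the same length. AACCNGTT was found in 3 members (14.3%) and in 2.09% of promoters, and TTCNNNGAA in 1 member (4.76%) and in 8.30% of promoters. No match of one motif overlapped a match of another in the 5 sequences shown. Of the 5, Cldn7 and Prom2 held no match, and a match describes these letters only.

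None of the 30 tested luminal genes differed between a3a6KO and Ctrl at an adjusted p under 0.05 in limma. Of all 16889 genes tested, limma called 0 (0%), edgeR, a count model on the recovered reads, called 0 members and 0 genes (0%), and DESeq2, another count model, called 0 members and 72 genes (0.426%). At an unadjusted p under 0.05, each of the 3 tools held the same 2 members, Aldh1a3 (above 0) and Muc15 (below 0), where 6.32% of all genes passed in limma (3.55% higher and 2.78% lower), 6.07% in edgeR and 6.69% in DESeq2. The groups did not overlap in 1 member, Aldh1a3, which is 3.33% of the members, against 7.51% of all genes, or 4% with a3a6KO higher. Of the 30, 14 had a log2 fold change above 0 and 16 below, where all genes were split into 49.5% above and 50.5% below. The median was −0.024 over the members and −0.0040 over all genes. For 17 of the 30 the 95% interval of the fold change included a 2-fold change in at least 1 direction, so a change of that size is within the interval for these genes, Aldh1a3 and Muc15 among them.

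**Figure D1:**
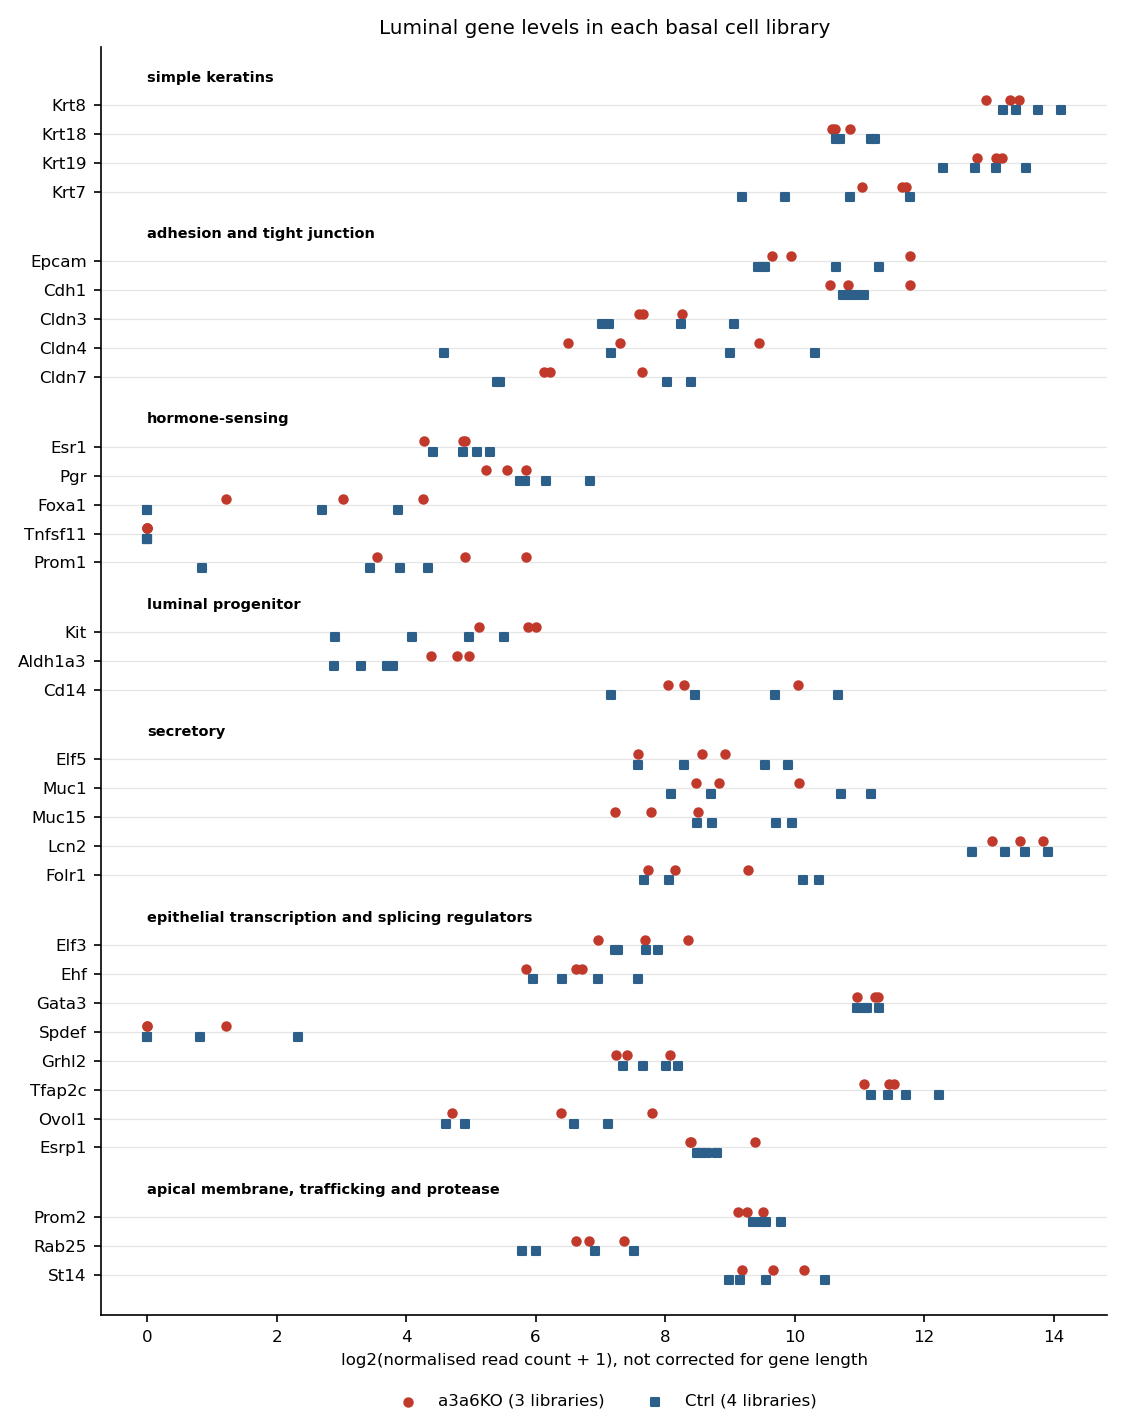
Level of each of the 33 luminal genes in every library, as log2(normalised read count + 1) on the horizontal axis, with circles for the 3 a3a6KO libraries and squares for the 4 Ctrl libraries. Aldh1a3 is the 1 tested gene whose circles and squares do not overlap, and Tnfsf11 is at 0 in all 7 libraries.

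**Figure D2:**
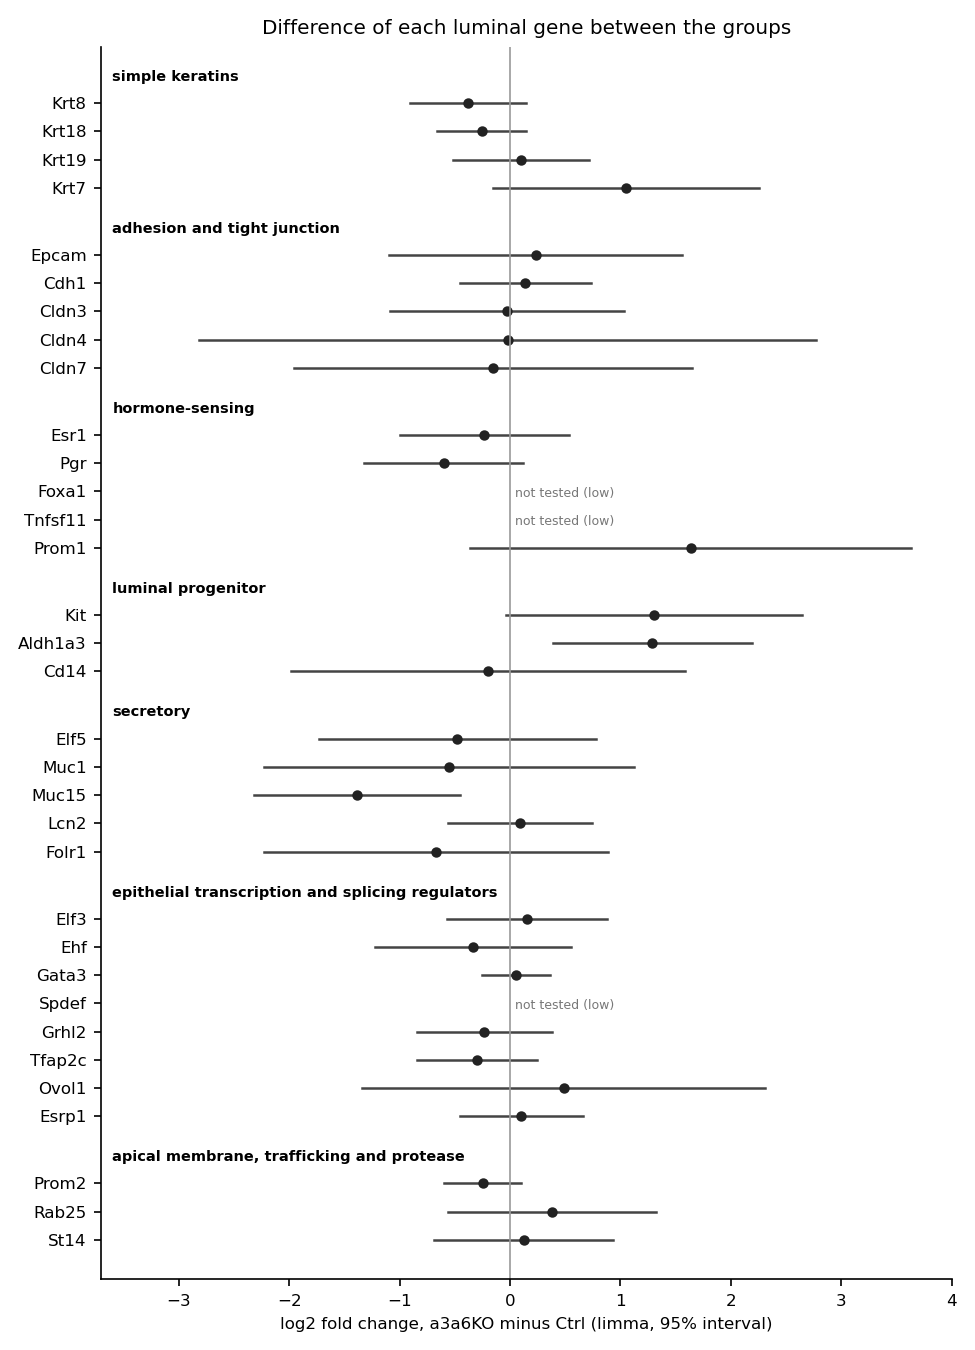
Log2 fold change, a3a6KO minus Ctrl, of each tested luminal gene from limma (point) with its 95% interval (line). The intervals of 28 of the 30 tested genes include 0, and the exceptions are Aldh1a3 and Muc15.

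The simple keratins, which form the filaments of simple epithelia, were among the most abundant luminal transcripts in both groups, and none of the 4 passed the test. Krt8, the type II keratin of simple epithelia, had normalised read counts of 7953, 11239.6 and 10280.2 in a3a6KO replicates 1 to 3, against 17769, 10962, 9479 and 13869.8 in Ctrl replicates 1 to 4. Its type I partner Krt18 had 1568, 1534 and 1850.4 in a3a6KO replicates 1 to 3, against 2313, 1601, 1671 and 2409 in Ctrl replicates 1 to 4. Both genes lie on chromosome 15, and for both the highest 2 libraries were Ctrl replicates 1 and 4, with overlap of the groups. The log2 fold change was −0.38 (SE 0.23) for Krt8 and −0.26 (SE 0.18) for Krt18, with limma adjusted p = 0.806 and 0.831. Within a library, the normalised count of Krt8 was 5.07 to 7.68 times that of Krt18, a ratio not corrected for length, and Krt8 has 1 named pseudogene in the annotation, to which its reads could be split. Krt19, a small type I keratin without a tail domain, had 7191, 9374 and 8798 in a3a6KO replicates 1 to 3, against 12155, 5016, 8824 and 7090.4 in Ctrl replicates 1 to 4. The highest and the lowest Krt19 were both controls, replicates 1 and 2, and its log2 fold change was 0.10 (SE 0.27). It turned to −0.01 under quantile normalization. Krt7, a type II keratin of ducts and glands, had 3365, 3234 and 2114 in a3a6KO replicates 1 to 3, against 927, 584, 1856 and 3534 in Ctrl replicates 1 to 4. All 3 a3a6KO libraries lay above Ctrl replicates 1 to 3 and below Ctrl replicate 4. Its log2 fold change of 1.05 (SE 0.53) had a 95% interval of −0.15 to 2.25, with limma adjusted p = 0.789. The fold change was 0.64 without Ctrl replicate 2.

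Set per kilobase of exon, with the exon length of GENCODE M21 on the same build, Krt8 (5950.2 normalised counts per kilobase, mean of 7 libraries) and Krt19 (4501) led the 33 genes. Lcn2 (4287), Krt18 (1287), Tfap2c (823), Epcam (706), Gata3 (568) and Cdh1 (453) followed on the same scale. Krt14, the basal keratin, stood at 28862 and the milk protein gene Wap at 82066, also per kilobase. Apart from Cd14, at 379, the hormone-sensing and progenitor genes closed the order with Spdef, with Pgr at 7.23, Kit at 4.05, Aldh1a3 at 3.62, Prom1 at 2.8 and Esr1 at 2.05 per kilobase.

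Of the 5 adhesion and tight junction genes, 2 had a log2 fold change above 0 and 3 below, between −0.15 and 0.23. The levels of Epcam, Cldn4 and Cldn7 spread widely within each group. Cdh1, which encodes E-cadherin of the adherens junction, had 1486, 1808 and 3501 in a3a6KO replicates 1 to 3, against 1962, 1873, 1710.4 and 2151 in Ctrl replicates 1 to 4. The highest control was 1.26 times the lowest, and a3a6KO replicate 3 lay above the other 6 libraries. Epcam, an adhesion molecule of the epithelial surface, had 983, 802 and 3532 in a3a6KO replicates 1 to 3, against 692, 747, 1586 and 2512 in Ctrl replicates 1 to 4. Here too a3a6KO replicate 3 was the highest, followed by Ctrl replicates 4 and 3. The log2 fold change was 0.14 (SE 0.26) for Cdh1 and 0.23 (SE 0.58) for Epcam, and both turned below 0 without a3a6KO replicate 3 (−0.23 and −0.43) and with library weights (−0.10 and −0.02).

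Of the 3 claudins, the sealing proteins of tight junctions, Cldn4 differed most. It had normalised read counts of 157, 89.7 and 696 in a3a6KO replicates 1 to 3, against 23.1, 143, 510.5 and 1269 in Ctrl replicates 1 to 4. The lowest and the highest library were both controls, 54.9 times apart. Cldn7 ranged over 68.8 to 199 in a3a6KO and 41.2 to 337 in Ctrl, and Cldn3, which neighbours Cldn4 on chromosome 5, over 192 to 306 in a3a6KO and 129 to 532 in Ctrl. Their log2 fold changes were −0.02 (SE 1.23), −0.15 (SE 0.80) and −0.03 (SE 0.47) for Cldn4, Cldn7 and Cldn3, and each turned above 0 when Ctrl replicate 3 or 4, or a3a6KO replicate 1 or 2, was left out. Cldn3 was at 0.0005 under quantile normalization.

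The hormone-sensing genes had low counts in both groups, and 2 of the 5 did not pass the filter. Pgr, the progesterone receptor, had 36.5, 46.2 and 56.9 in a3a6KO replicates 1 to 3, against 70.3, 114, 56.0 and 53.0 in Ctrl replicates 1 to 4. Ctrl replicate 2 was the highest, and the groups overlapped through a3a6KO replicate 3, which lay above Ctrl replicates 3 and 4. Its log2 fold change was −0.60 (SE 0.32), with limma adjusted p = 0.789. Esr1, the oestrogen receptor α, had 29.0, 18.5 and 28.5 in a3a6KO replicates 1 to 3, against 38.2, 33.1, 28.5 and 20.4 in Ctrl replicates 1 to 4, with overlap of the groups and a log2 fold change of −0.23 (SE 0.34). Prom1, a membrane glycoprotein of hormone-sensing cells in the mouse gland, had 10.8, 29.0 and 56.9 in a3a6KO replicates 1 to 3, against 14.1, 0.808, 19.3 and 9.83 in Ctrl replicates 1 to 4. The highest 2 libraries were a3a6KO replicates 3 and 2, and a3a6KO replicate 1 lay among the controls. The lowest value stood for 1 read, in Ctrl replicate 2. The log2 fold change of 1.64 (SE 0.88) was 0.88 without that library and 2.25 without a3a6KO replicate 1. Foxa1, the pioneer factor that opens chromatin for Esr1, had 18.2, 1.32 and 7.12 in a3a6KO replicates 1 to 3, against 0, 0, 5.51 and 13.6 in Ctrl replicates 1 to 4 and did not pass the filter. Tnfsf11, which encodes RANKL, a signal sent by hormone-sensing cells, had 0 reads in every library, which allows up to 3 reads in each, or a normalised count of up to 5.34 in the shallowest. This limit covers counting error only and takes each read as an independent fragment, which is not known here.

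Of the 3 progenitor genes, Kit and Aldh1a3 had a log2 fold change above 0 and Cd14 one below 0. Aldh1a3 (identifier GSMG0036076, mm10 chromosome 7, 66390895 to 66427479), a retinaldehyde dehydrogenase, had 19.9, 30.3 and 26.7 in a3a6KO replicates 1 to 3, against 12.05, 8.89, 6.43 and 12.9 in Ctrl replicates 1 to 4. Every a3a6KO library lay above every control in normalised values, from 15 to 24 reads in a3a6KO and 7 to 17 reads in Ctrl. Its log2 fold change was 1.29 (SE 0.40), with a 95% interval of 0.39 to 2.19 and a limma adjusted p of 0.634. It stayed between 1.11 and 1.46 when each library was left out in turn. Kit, the stem cell factor receptor of luminal progenitors, had 58.0, 63.3 and 33.8 in a3a6KO replicates 1 to 3, against 16.1, 6.46, 30.3 and 44.6 in Ctrl replicates 1 to 4. Ctrl replicate 4 reached above a3a6KO replicate 3, so the groups overlapped, and the log2 fold change was 1.30 (SE 0.59), with limma adjusted p = 0.785. It was 0.81 without Ctrl replicate 2. Cd14, a lipopolysaccharide co-receptor found on luminal progenitors and on macrophages, had 263, 314 and 1060.4 in a3a6KO replicates 1 to 3, against 143, 349.8, 827 and 1634 in Ctrl replicates 1 to 4. It was highest in Ctrl replicate 4, followed by a3a6KO replicate 3 and Ctrl replicate 3, and its log2 fold change of −0.20 (SE 0.79) turned to 0.36 without Ctrl replicate 4.

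Kit and Prom1 are known from blood-forming and endothelial progenitor cells as well, and markers of other cells were measured in the same libraries. All 12 endothelial markers had a log2 fold change above 0, from 0.73 to 1.52, and 9 of the 12 did not overlap between the groups. Over all genes tested, the groups did not overlap in 7.51%, or 4% with a3a6KO higher. Of the 12, limma and edgeR called 0 and DESeq2 called 7, where DESeq2 called 0.426% of all genes. The fold change was also above 0 for 8 of 9 fibroblast markers (median 0.47) and for 8 of 8 pericyte markers (median 0.52), with 0 called in limma, edgeR and DESeq2. It was above 0 for 49.5% of all genes. Of the 16 immune markers, 7 passed the filter, 3 above 0 and 4 below, and the macrophage gene Lyz2 had 291, 359 and 441 in a3a6KO replicates 1 to 3, against 120.5, 181, 624 and 479.6 in Ctrl replicates 1 to 4. Its highest 3 libraries were Ctrl replicates 3 and 4 and a3a6KO replicate 3, which were also the highest 3 for Cd14. The same 3 were highest for the luminal genes Muc1, Folr1, Epcam and Cldn4 and for Csn2. Of the 7 immune markers tested, Csf1r, Cd68, Ptprc and S100a9 also had these 3 libraries highest, while Cd74 and Tyrobp did not. The part of these cells in the values of Aldh1a3, Kit, Prom1 and Cd14 was not tested.

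Of the 5 secretory genes, 4 had a log2 fold change below 0, with Lcn2 as the exception, and none passed the test. Muc15 (identifier GSMG0021541, mm10 chromosome 2, 110721494 to 110739539), a membrane mucin of the milk fat globule, had 149, 219 and 361 in a3a6KO replicates 1 to 3, against 359, 423, 836 and 995 in Ctrl replicates 1 to 4. The groups overlapped only between a3a6KO replicate 3 and Ctrl replicate 1. Its log2 fold change was −1.39 (SE 0.41), with a 95% interval of −2.32 to −0.46, and limma adjusted p = 0.603. The DESeq2 adjusted p was 0.0735, the lowest of 17 alternatives, which ran up to 0.970. Muc1, the apical mucin of luminal cells, had 355, 452 and 1068 in a3a6KO replicates 1 to 3, against 417, 271, 1684 and 2322 in Ctrl replicates 1 to 4. Ctrl replicates 3 and 4 were the highest and Ctrl replicate 2 was the lowest of the 7 libraries. Folr1, the folate receptor α, had the same order at its upper end, with 213, 282 and 617 in a3a6KO replicates 1 to 3, against 265, 204, 1124 and 1323 in Ctrl replicates 1 to 4. The log2 fold changes were −0.55 (SE 0.74) for Muc1, −0.67 (SE 0.69) for Folr1 and −0.48 (SE 0.55) for Elf5, the ETS factor that drives alveolar differentiation, which ranged over 189.7 to 482 in a3a6KO and 191 to 957 in Ctrl. Lcn2, an iron-scavenging lipocalin of milk and of neutrophils, had 11469, 8469 and 14652 in a3a6KO replicates 1 to 3, against 6809.9, 9771, 12071 and 15470.5 in Ctrl replicates 1 to 4. The groups overlapped over most of their range, and its log2 fold change of 0.09 (SE 0.29) turned to −0.12 without Ctrl replicate 1 and to −0.10 without a3a6KO replicate 3. The neutrophil genes S100a8 and S100a9 had values of 0 to 10.7 in a3a6KO and 0 to 19.7 in Ctrl and of 0 to 10.7 in a3a6KO and 0 to 13.6 in Ctrl, and the part of neutrophils in the Lcn2 values was not tested.

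Set side by side, the median log2 fold change was 1.29 for the 3 progenitor genes, −0.23 for the 3 hormone-sensing genes tested and −0.55 for the 5 secretory genes. With 3 genes, the median is the value of 1 gene, here Aldh1a3 for the progenitor and Esr1 for the hormone-sensing genes. Leaving out 1 library gave 0.81 (without Ctrl replicate 2) to 1.41 (without Ctrl replicate 4) for the progenitor genes, −0.40 (without Ctrl replicate 4) to −0.03 (without a3a6KO replicate 2) for the hormone-sensing genes and −1.08 (without Ctrl replicate 2) to −0.12 (without Ctrl replicate 4) for the secretory genes. The mean log2 level of the 3 progenitor genes was 6.10, 6.42 and 6.65 in a3a6KO replicates 1 to 3, against 4.99, 4.89, 5.85 and 6.66 in Ctrl replicates 1 to 4. That of all 5 hormone-sensing genes was 3.57 ± 0.37 in a3a6KO and 3.17 ± 0.46 in Ctrl (SD, n = 3 and 4). This mean was higher in a3a6KO, opposite to the sign of the hormone-sensing median. The mean also takes in Foxa1 and Tnfsf11, which the median leaves out. Foxa1 had a mean normalised read count of 8.89 in a3a6KO and 4.78 in Ctrl, and Prom1 had a log2 fold change of 1.64. The groups overlapped in the mean level of both subgroups, and for the progenitor genes Ctrl replicate 4 was the highest of the 7 libraries. With a minimum value of 50, Cd14 was the 1 progenitor gene left, at −0.20. The medians of the other 4 subgroups were −0.08 for keratins, −0.02 for adhesion and tight junction genes, 0.05 for regulators and 0.12 for apical genes, and each of these 4 changed sign when 1 library was left out. Whether these medians differ from each other was not tested. The 16 other secretory genes, mostly caseins, whey proteins and milk fat globule genes, had 12 log2 fold changes below 0 and 4 above, with a median of −0.72 and 0 called in limma, edgeR and DESeq2. Leaving out Ctrl replicate 2 gave a median of −1.29, and leaving out a3a6KO replicate 1 gave −0.30. Their mean log2 level was 11.20, 11.76 and 12.72 in a3a6KO replicates 1 to 3, against 11.95, 11.48, 13.13 and 13.46 in Ctrl replicates 1 to 4. The mean log2 level of the 5 secretory members was 8.90, 9.27 and 10.12 in a3a6KO replicates 1 to 3, against 9.26, 9.07, 10.73 and 11.07 in Ctrl replicates 1 to 4. In both, Ctrl replicate 4 was the highest, followed by Ctrl replicate 3 and a3a6KO replicate 3, and a3a6KO replicate 1 was the lowest. The part of the milk-rich libraries in the fold changes was not tested.

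**Figure D3:**
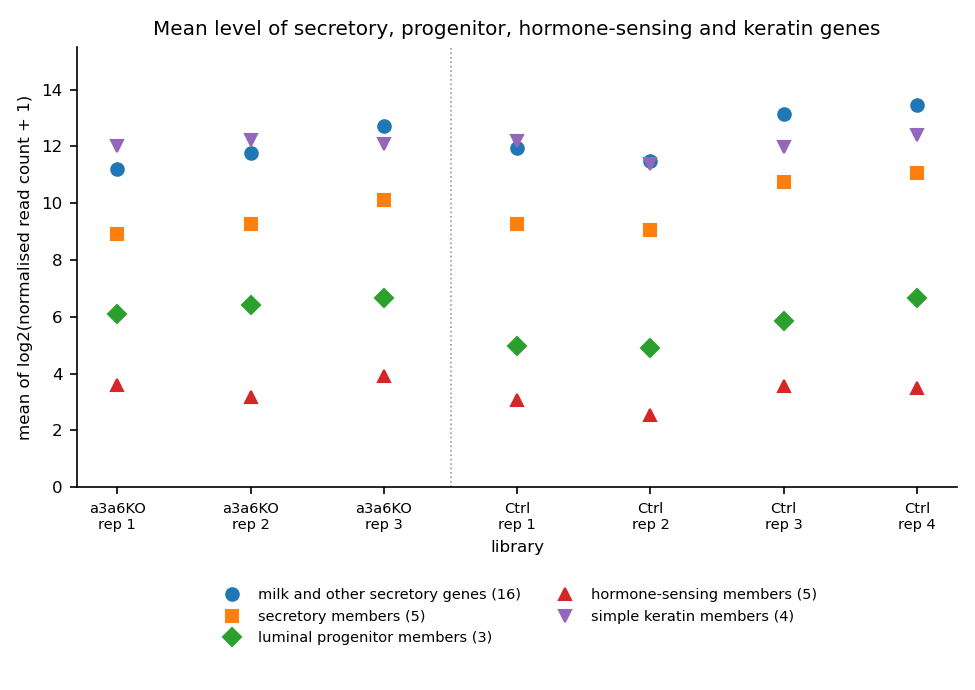
Mean of log2(normalised read count + 1) per library for the other secretory genes and for the secretory, progenitor, hormone-sensing and simple keratin members, with a3a6KO libraries left of the dotted line and Ctrl libraries right of it. The secretory members and the other secretory genes are both highest in Ctrl replicate 4, at 11.07 and 13.46, while the keratin mean lies between 11.39 and 12.39.

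The regulators of transcription and splicing held the steadiest of the 30 tested genes, Gata3, and also 1 of the most spread, Ovol1. Gata3, the zinc finger factor of luminal fate, had 2499.7, 2425 and 1999.8 in a3a6KO replicates 1 to 3, against 2522, 2152, 2227 and 1997 in Ctrl replicates 1 to 4. All 7 values lay within 1.26-fold, and the log2 fold change was 0.05 (SE 0.14), with a 95% interval of −0.26 to 0.36. Tfap2c, the AP-2γ factor of luminal and basal cells, had 2795, 2948 and 2153 in a3a6KO replicates 1 to 3, against 4799.6, 3386, 2786 and 2324 in Ctrl replicates 1 to 4. Ctrl replicate 1 was the highest and the log2 fold change was −0.30 (SE 0.24). Esrp1, which sets the epithelial pattern of splicing, had 338, 334 and 669 in a3a6KO replicates 1 to 3, against 447, 359.5, 373 and 400.2 in Ctrl replicates 1 to 4. Of these, a3a6KO replicate 3 stood above the rest, which lay between 334 and 447, and the log2 fold change of 0.10 (SE 0.25) turned to −0.23 without it and to −0.06 with library weights. The ETS factor Elf3 ranged over 124 to 326 in a3a6KO and 149 to 235 in Ctrl, and its log2 fold change of 0.15 (SE 0.32) turned to −0.19 without a3a6KO replicate 3 and to −0.01 with library weights. Its relative Ehf ranged over 56.7 to 104 in a3a6KO and 61.3 to 189.9 in Ctrl, with a log2 fold change of −0.33 (SE 0.39). Grhl2, the grainyhead-like factor that maintains epithelial junctions, ranged over 149.96 to 269 in a3a6KO and 162 to 294 in Ctrl, with a log2 fold change of −0.23 (SE 0.27). Ovol1, a zinc finger repressor of mesenchymal genes, ranged over 25.1 to 221 in a3a6KO and 23.4 to 138 in Ctrl. Its log2 fold change of 0.49 (SE 0.81) turned to −0.26 without a3a6KO replicate 3, and 19.8% of its exon bases also belong to the annotated gene Gm31166, so without strand their reads cannot be told apart. Spdef, an ETS factor of secretory epithelia, had 0, 1.32 and 0 in a3a6KO replicates 1 to 3, against 0, 4.04, 0 and 0.756 in Ctrl replicates 1 to 4 and did not pass the filter.

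Among the genes of the apical membrane, Prom2, a relative of Prom1, had 558, 614 and 729 in a3a6KO replicates 1 to 3, against 752, 886, 654 and 719 in Ctrl replicates 1 to 4. The values lay within 1.59-fold of each other, and the log2 fold change was −0.25 (SE 0.15). St14, the membrane protease matriptase, had 581, 815 and 1126 in a3a6KO replicates 1 to 3, against 570.3, 504, 753 and 1415 in Ctrl replicates 1 to 4. Its highest library was Ctrl replicate 4 and its log2 fold change was 0.12 (SE 0.36), which turned to −0.11 without a3a6KO replicate 3. Rab25, a small GTPase of epithelial recycling vesicles, had 112, 97.6 and 164 in a3a6KO replicates 1 to 3, against 54.2, 63.0, 120.3 and 182 in Ctrl replicates 1 to 4. It followed the same order at its upper end, with Ctrl replicate 4 first and a3a6KO replicate 3 second, and its log2 fold change was 0.38 (SE 0.42).

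The luminal genes differed widely in how steady they were across libraries. Over the 7 libraries, the SD of log2(normalised read count + 1) was 0.144 for Gata3, 0.217 for Prom2, 0.271 for Krt18 and 0.378 for Krt8. It was 1.21 for Muc1, 1.25 for Cldn7, 1.25 for Cd14 and 1.96 for Cldn4. The median SD was 0.618 over the 30 tested members and 0.346 over all 16889 genes tested, a description of these libraries. Ctrl replicate 4 held the highest control value in 20 of the 30 members (66.7%), against 24.5% of all genes, and a3a6KO replicate 3 the highest mutant value in 21 (70.0%), against 38.1% of all genes. Ctrl replicate 3 held the highest control value in 1 member, and a3a6KO replicates 1 and 2 the highest mutant value in 4 and 5. a3a6KO replicate 3 was also the shallowest library and Ctrl replicate 4 the deepest, and the part of depth was not tested.

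**Figure D4:**
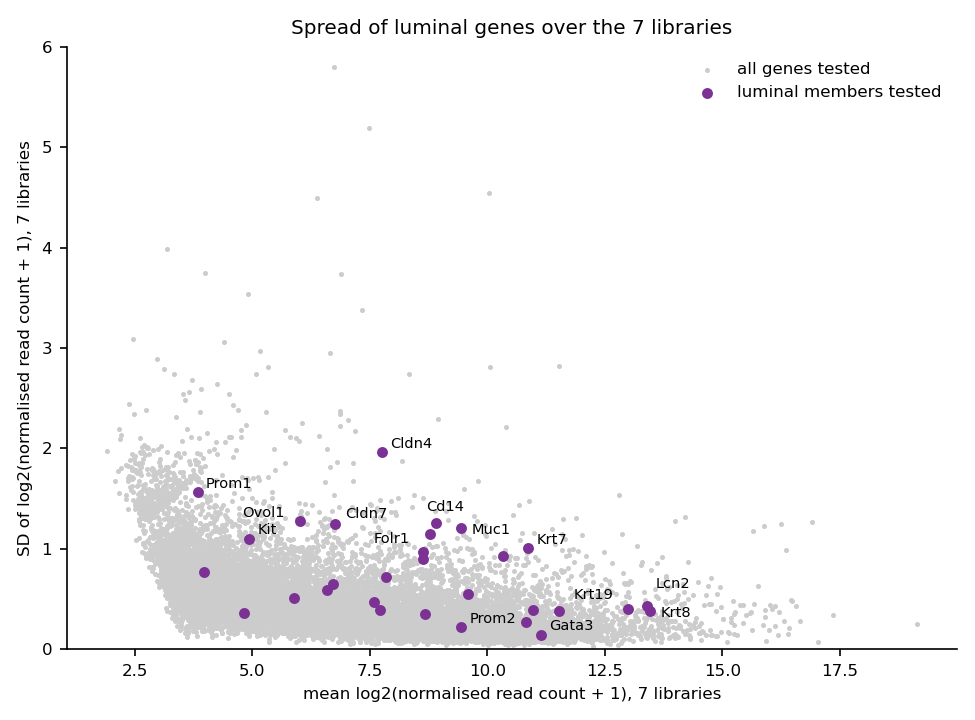
SD against mean of log2(normalised read count + 1) over the 7 libraries for all 16889 genes tested (grey) and the 30 tested luminal genes (purple). Cldn4 has the largest SD of the luminal genes, 1.96, and Gata3 the smallest, 0.144.

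**Figure D5:**
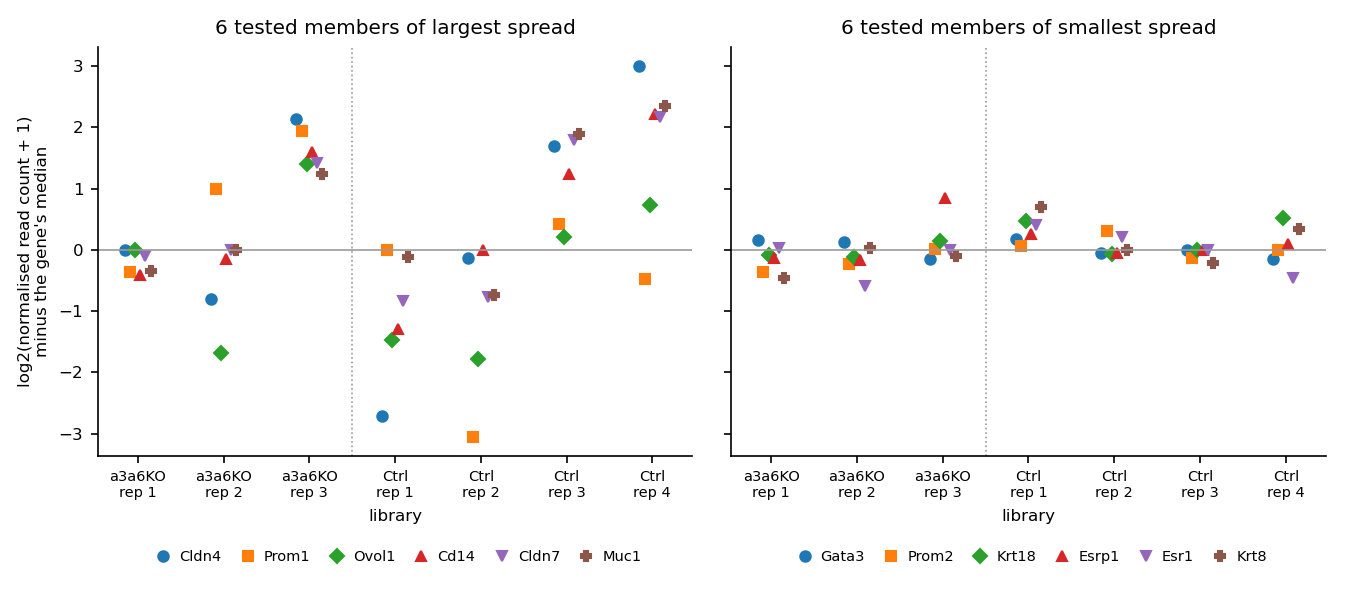
Log2(normalised read count + 1) minus the median of the gene over the 7 libraries, for the 6 tested luminal genes of largest SD (left) and the 6 of smallest SD (right), with a3a6KO libraries left of the dotted line and Ctrl libraries right of it. Cldn4, Ovol1, Cd14, Cldn7 and Muc1 are above their medians in a3a6KO replicate 3 and in Ctrl replicates 3 and 4. Prom1 is above its median in a3a6KO replicate 3 and Ctrl replicate 3 but below it in Ctrl replicate 4. Gata3 stays within 1.26-fold over all 7 libraries.

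The ratio of 1 secretory gene, Elf5, to 1 hormone-sensing gene, Esr1, also differed between libraries. Esr1 had 14 to 41 reads per library, so counting error moves this ratio as well. The normalised count of Elf5 was 6.54, 20.4 and 16.9 times that of Esr1 in a3a6KO replicates 1 to 3, against 8.16, 5.76, 26.1 and 46.9 times in Ctrl replicates 1 to 4, with neither gene corrected for length. The groups overlapped, and the 2 highest ratios were controls. The ratio of Krt7 to Krt8, also not corrected for length, was 0.423, 0.288 and 0.206 in a3a6KO replicates 1 to 3, against 0.0522, 0.0533, 0.196 and 0.255 in Ctrl replicates 1 to 4. It was lowest in Ctrl replicates 1 and 2, and the groups overlapped through Ctrl replicate 4.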

How the data were processed

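RNA from 7 sorted samples was sequenced after SMARTer v4 library preparation, per the labels' protocols. The deposited signal values are gene counts that the authors divided by a size factor per library with DESeq2, per the file title and the submitters' processing notes, which also name STAR 2.4.0, FastQC, Picard, SAMtools and build mm10. The sources used here name no read counter or strand setting. Values are not corrected for length. Dividing each library by its step size gave whole reads within 0.01 for 100% of values, which says little for Ctrl replicate 1, whose step is close to 1, and 61.8% to 63.8% of counts from 1 to 20 were even, so the number of independent fragments is unknown. Groups come from the genotype label, and replicate numbers only name libraries.

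Two-sided limma tests (version 3.58.1, R 4.3.3, empirical Bayes with trend) were run on log2(value + 1) for 16889 genes, those reaching 10 in 3 or more libraries, with Benjamini-Hochberg adjustment over all of them. Fold changes are a3a6KO minus Ctrl on this scale, and the added 1 draws those of low genes towards 0. They were not always smaller than in DESeq2, with 1.64 against 1.54 for Prom1 and 1.30 against 1.09 for Kit. For Aldh1a3 and Pgr limma gave the smaller change, 1.29 against 1.33 and −0.60 against −0.68. The design text says biological replicates but not separate animals, so p-values measure the spread between these samples. edgeR 4.0.16 and DESeq2 1.42.0 on recovered reads, other pseudocounts, filters, scalings, weights and leaving out each library were alternatives. Scripts were tested on simulated data. The members and lists were chosen with earlier results of these data known. Every member is named, with all values for the 3 most abundant of each subgroup, the 3 of smallest p and any without overlap. Other genes are named from the top of their lists, and Itga3, Itga6, Mcpt4, Cpa3, Mpo, Ptprc, S100a8 and S100a9 were added after their values were seen. One fibroblast marker is not analysed here.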

Additional observations from a re-analysis of the deposited data

How the results depend on the processing

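No member was called in limma, edgeR, DESeq2 or any other alternative. The count of all genes called was 72 in DESeq2 and 0 in every other alternative, those leaving out 1 library included. The median fold change of the members ran from −0.30 (without a3a6KO replicate 3) to 0.15 (without Ctrl replicate 4). The number without overlap was 0 with a minimum of 50, which leaves out Aldh1a3, and 1 to 7 when 1 library was left out. The 7, without a3a6KO replicate 3, were Kit and Aldh1a3 higher and Krt18, Pgr, Muc15, Esrp1 and Prom2 lower in a3a6KO, 23.3% of members against 15.7% of all genes, and there were 3 without Ctrl replicate 4 (against 14.1% of all genes), 2 without a3a6KO replicate 1 (against 15.3%) and 2 without Ctrl replicate 1 (against 10.7%), each a smaller share of the 30 members. Of 506 values of single members, 471 kept their direction and 35, in 13 genes, turned, with the cause not tested. Under quantile normalization Krt19 was −0.0145 and Cldn3 0.0005, and with library weights Epcam was −0.0187, Cdh1 −0.10, Elf3 −0.0147 and Esrp1 −0.0556. Leaving out 1 library gave −0.12 to 0.31 for Krt19, −0.43 to 0.64 for Epcam, −0.23 to 0.39 for Cdh1, −0.31 to 0.37 for Cldn3, −1.08 to 0.83 for Cldn4, −0.64 to 0.37 for Cldn7, −0.82 to 0.36 for Cd14, −0.12 to 0.30 for Lcn2, −0.19 to 0.50 for Elf3, −0.0096 to 0.15 for Gata3, −0.26 to 1.28 for Ovol1, −0.23 to 0.27 for Esrp1 and −0.11 to 0.43 for St14. For members of few reads, such as Foxa1 and Spdef, counting error is large, and the part of depth was not tested. No paired analysis was possible because the replicate numbers follow deposition order and no label ties a mutant library to a control by litter, day or batch.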

Other observations

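Other epithelial genes outside the 33 were measured as well. Of 20 genes of polarity, tight junctions and epithelial proteases, 14 had a log2 fold change above 0 and 6 below, with a median of 0.19 and 0 called in limma, edgeR or DESeq2. Spint2, an inhibitor of membrane serine proteases, was the 1 gene of the list without overlap (7.51% of all genes had none), with 9181, 9748 and 9003 in a3a6KO replicates 1 to 3, against 7826, 7554, 7495 and 8996 in Ctrl replicates 1 to 4. Its log2 fold change was 0.23 (SE 0.13), and a3a6KO replicate 3 lay closest to the controls. Lsr, a protein of tricellular junctions, had 1289, 1646 and 1847 in a3a6KO replicates 1 to 3, against 1136, 1020.4, 999 and 1409 in Ctrl replicates 1 to 4, a log2 fold change of 0.48 (SE 0.17) with limma adjusted p = 0.707. The groups of Lsr overlapped through Ctrl replicate 4.

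Of 10 other hormone-sensing genes, 7 passed the filter, 4 above 0 and 3 below, with a median of 0.03. Ly6a, which encodes the surface antigen Sca-1 of hormone-sensing luminal, endothelial and other cells, had 385, 305 and 259.8 in a3a6KO replicates 1 to 3, against 128, 162, 214 and 263 in Ctrl replicates 1 to 4, a log2 fold change of 0.76 (SE 0.26) with limma adjusted p = 0.691. Wnt4, a signal sent by hormone-sensing cells, had 347, 131 and 46.3 in a3a6KO replicates 1 to 3, against 125, 248, 458 and 363 in Ctrl replicates 1 to 4, a log2 fold change of −1.06 (SE 0.65). The groups overlapped in both genes, for Ly6a because Ctrl replicate 4 lay above a3a6KO replicate 3.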
